A study of Mus musculus with 16 samples.

Results

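The brush border hydrolases followed here are 9 genes chosen by name for the enzymes they encode on the luminal face of the small intestine: Sis, Mgam, Lct, Treh, Anpep, Dpp4, Mep1a, Enpp7 and Alpi. The choice was made with earlier results of these data known. Each had 1 of the 23847 rows of the expression table, and all 9 were among the 11097 rows that reached the minimum mean of 1 FPKM used for testing. FPKM values count fragments relative to transcript length and to the mapped total. RNA had been sequenced from 16 organoid cultures of the C57BL/6 mouse small intestine, which are epithelial cultures grown from isolated crypts, at day 3. They formed 4 groups of 4 libraries: ATG16L1-deficient organoids (dIEC) given 20 ng/ml murine TNF for 2 hours, organoids carrying Atg16L1 f/f given the same TNF, unstimulated dIEC organoids and unstimulated f/f organoids. The notation f/f stands for an allele flanked by loxP sites, and the series calls these organoids wild type. The labels name neither the Cre driver nor the animal or culture behind a library, so the p-values rest on the scatter among libraries, and that scatter may be technical.

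The brush border is the carpet of microvilli on mature absorptive enterocytes, and its membrane enzymes carry out the last step of digestion before transport. Disaccharidases release single sugars, peptidases release amino acids and short peptides, alkaline sphingomyelinase acts on dietary sphingomyelin, and intestinal alkaline phosphatase removes phosphates from lipids and from bacterial lipopolysaccharide. The genes are switched on as enterocytes leave the crypt, and lactase is the milk enzyme whose level drops after weaning in most mammals. ATG16L1 is part of the complex that attaches LC3 proteins to membranes in autophagy, and TNF is an inflammatory cytokine that acts on epithelial cells through NF-kB.

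Sequencing depth is unknown. FPKM summed per library to between 494221 and 610125, 10796 to 11144 rows per library reached 1 FPKM, and low values put the relative depth at 0.879 to 1 of that of f/f library 1. The targeted gene, Atg16l1, measured 7.24 ± 0.414 FPKM in dIEC with TNF and 10.4 ± 0.679 in f/f with TNF, and 5.64 ± 0.573 in unstimulated dIEC and 8.97 ± 0.472 in unstimulated f/f (SD, n = 4). FPKM cover the whole gene, so fragments from outside a deleted part can remain. Epithelial markers were abundant (Epcam 291 to 367 FPKM), and Muc5ac, a stomach mucin, was listed at 0 in all 16 libraries. The immune markers Ptprc, Cd3e and Cd79a lay between 0 and 0.114 FPKM and Itgam between 0.672 and 1.09 FPKM, while Lyz2, a lysozyme of myeloid cells and a paralog of the Paneth cell gene Lyz1, lay between 18.8 and 36.9 FPKM. Lyz2 was lower in dIEC with TNF (log2 change -0.40, adjusted p = 0.00632) and without (-0.43, adjusted p = 0.00899). The stomach marker Tff1 reached 1.01 FPKM. Vim, a mesenchymal marker, reached 10.4 FPKM in 1 unstimulated f/f library and lay from 2.94 FPKM upward in the 16 libraries. Library 4 of dIEC and library 1 of f/f stood apart in both treatments. In these 4 libraries a row's deviation from its mean fell with the GC share of its transcript (Spearman rho across rows from -0.707 to -0.388). In the other libraries rho lay between 0.415 and 0.625 with TNF and between -0.306 and 0.108 without. Counts of the hydrolases called are therefore also given without those 4 libraries. Leaving them out does not remove the difference in rho between TNF and unstimulated libraries.

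By mean FPKM over the 16 libraries the order was Sis (458.8), Mgam (176), Alpi (158), Anpep (48.5), Treh (35.5), Dpp4 (35.1), Mep1a (13.7), Lct (4.55) and Enpp7 (2.63). Sis lay above Mgam, Alpi above Anpep, Dpp4 above Mep1a and Mep1a above Lct in 16 of 16 libraries. Mgam exceeded Alpi in 12 libraries and Anpep exceeded Treh in 14. Neither Treh and Dpp4 (Treh higher in 8 of 16) nor Lct and Enpp7 (Lct higher in 9 of 16) kept 1 order. The 9 genes together made up 0.136% to 0.218% of a library's summed FPKM. Lct stood at 0.977% to 1.41% of the Sis level in dIEC with TNF and at 1.80% to 1.98% in f/f with TNF, and at 0.248% to 0.400% in unstimulated dIEC and 0.211% to 0.345% in unstimulated f/f.

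**Figure D1:**
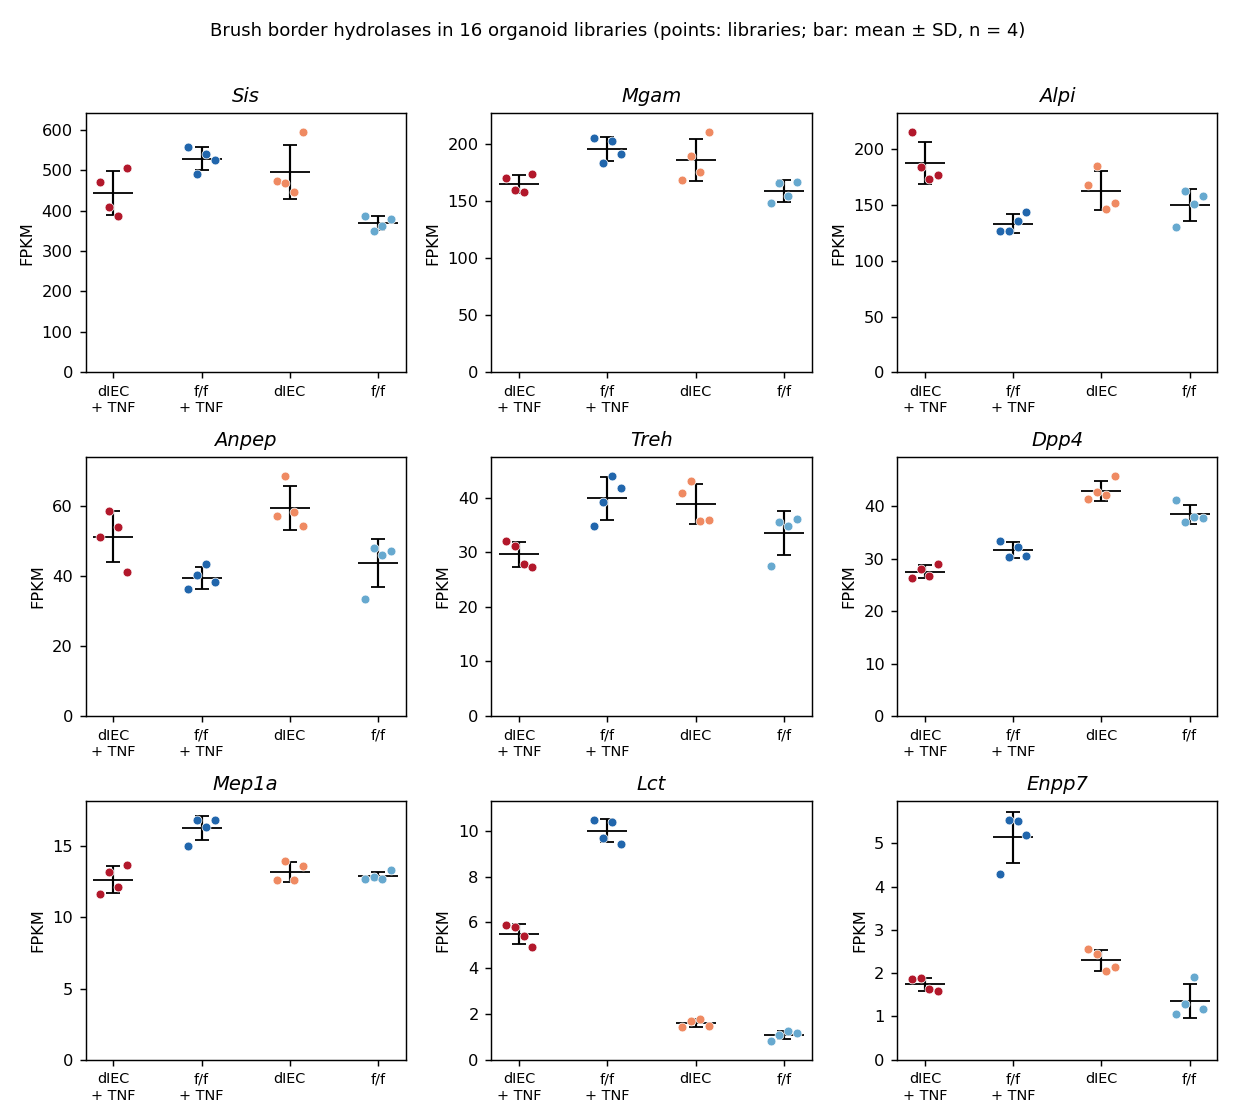
FPKM of the 9 hydrolases in the 16 libraries, 1 panel per gene with its own axis from 0; points are libraries, the long bar is the mean and the whiskers are the SD of 4 libraries. Lct and Enpp7 are highest in f/f with TNF, where their means are 10.0 and 5.13 FPKM.

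The start regions of the 4 genes that carry the main contrasts in the data are shown first: Lct and Enpp7, with the largest changes, Sis, the most abundant, and Alpi, the hydrolase called higher in dIEC under TNF. Each line gives the 250 bases before the RefSeq start site in GRCm38.p6 (mm10), read 5′ to 3′ on the strand of the gene: Lct on the minus strand at chr1:128328319-128328568, Enpp7 on the plus strand at chr11:118987931-118988180, Sis on the minus strand at chr3:72967864-72968113 and Alpi on the minus strand at chr1:87101607-87101856. Capitals mark each GATAA, the core that GATA factors bind, and each TTTAT, the core that CDX factors bind, on either strand (TTATC and ATAAA are the same letters on the other strand).
Lct: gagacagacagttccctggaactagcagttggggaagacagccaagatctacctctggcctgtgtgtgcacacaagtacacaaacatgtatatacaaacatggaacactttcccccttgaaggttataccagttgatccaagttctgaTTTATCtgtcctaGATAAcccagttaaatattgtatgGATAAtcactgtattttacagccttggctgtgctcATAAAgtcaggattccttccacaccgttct
Enpp7: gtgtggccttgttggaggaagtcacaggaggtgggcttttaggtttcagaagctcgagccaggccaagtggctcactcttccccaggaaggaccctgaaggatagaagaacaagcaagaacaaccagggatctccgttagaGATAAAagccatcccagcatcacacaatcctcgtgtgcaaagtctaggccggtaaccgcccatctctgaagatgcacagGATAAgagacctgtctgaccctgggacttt
Sis: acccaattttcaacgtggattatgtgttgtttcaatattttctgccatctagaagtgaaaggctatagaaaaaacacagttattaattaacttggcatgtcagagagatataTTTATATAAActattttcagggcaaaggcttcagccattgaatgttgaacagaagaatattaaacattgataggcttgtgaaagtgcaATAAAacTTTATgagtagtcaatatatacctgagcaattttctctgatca
Alpi: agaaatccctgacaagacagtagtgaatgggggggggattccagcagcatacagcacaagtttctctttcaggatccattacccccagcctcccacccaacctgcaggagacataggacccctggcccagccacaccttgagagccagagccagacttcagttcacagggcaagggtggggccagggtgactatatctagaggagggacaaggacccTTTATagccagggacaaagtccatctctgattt
Before Lct there were 3 GATAA and 2 TTTAT matches, and 1 of each shares bases in the run TTTATC. Enpp7 had 2 GATAA matches and 1 TTTAT match, which shares bases with a GATAA. Sis had 4 TTTAT matches and no GATAA, and Alpi had 1 TTTAT match. Over all 9 genes, whose start regions were all found in RefSeq, GATAA occurred before 5 (22.6% of 32851 start regions of the same length hold it) and TTTAT before 6 (37.3%). A consensus motif of HNF1 (0.116% of start regions) and one of NF-kB (0.98%), also searched on both strands, occurred before 0 of the 9. Only full matches to each consensus were counted, so a site departing from it at a single base was missed. With motifs this rare, a count of 0 in 9 regions was likely in advance. It does not show that HNF1 or NF-kB sites are absent. A match is a run of letters and does not show that a factor binds there.

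TNF raised the hydrolases in f/f organoids more often than it lowered them. Of the 9, 6 rose and 1 fell at an adjusted p under 0.05 (limma, adjusted over all 11097 rows), where 47.2% of all rows were called, 26.9% higher and 20.3% lower. The median log2 change of the 9 was 0.30, against 0.05 over all rows. In 6 of the 9 the treated and unstimulated ranges did not overlap, which held for 44.0% of all rows. With median-of-ratios scaling 5 hydrolases rose and 2 fell, and the rows called over the table were 2405 higher and 2925 lower, against 2986 and 2249 without that scaling. Leaving out the 4 libraries apart gave 6 up and 2 down, with 62.0% of all rows called. With each library's trend on GC removed, 5 rose and 3 fell, the latter being Alpi, Anpep and Dpp4. Treh was not called there (adjusted p = 0.0621), and 58.6% of all rows were called.

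Lactase, encoded by Lct (chr1:128284756-128328318, minus strand, mm10), had the largest TNF response of the 9. It measured 5.90, 5.80, 5.40 and 4.94 FPKM in dIEC with TNF and 1.45, 1.70, 1.79 and 1.47 FPKM in unstimulated dIEC. In f/f it measured 10.5, 9.71, 10.4 and 9.45 FPKM with TNF and 0.816, 1.09, 1.24 and 1.19 FPKM without. The TNF libraries lay above the unstimulated ones in both genotypes without overlap, and dIEC with TNF lay wholly below f/f with TNF. The ratio of the group means was 3.44 in dIEC and 9.22 in f/f. On the log2(FPKM + 1) scale, which understates changes of low genes, Lct rose by 1.32 in dIEC (SE 0.072, adjusted p = 1.41e-09) and by 2.40 in f/f (SE 0.072, adjusted p = 1.94e-12). The TNF response in dIEC minus that in f/f was -1.08 (SE 0.102, adjusted p = 3.15e-05), the 35th lowest of 11097 rows. The size depends on the pseudocount: the difference was -0.63 with a pseudocount of 5 and -1.38 with 0.1, and it was called with both.

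Enpp7, which encodes alkaline sphingomyelinase (chr11:118988188-118993221, plus strand), rose with TNF in f/f and fell in dIEC. It measured 1.86, 1.89, 1.63 and 1.59 FPKM in dIEC with TNF and 2.57, 2.43, 2.05 and 2.14 FPKM in unstimulated dIEC. In f/f it measured 4.30, 5.54, 5.51 and 5.20 FPKM with TNF and 1.05, 1.28, 1.92 and 1.16 FPKM without. None of the treated and unstimulated ranges overlapped, with the treated libraries below in dIEC and above in f/f. The log2 change was -0.26 in dIEC (SE 0.101, adjusted p = 0.0396) and 1.39 in f/f (SE 0.101, adjusted p = 4.62e-08). The fall in dIEC was not called in 7 of 27 alternatives, with an adjusted p of up to 0.107, reached when unstimulated dIEC library 1 was left out. The difference of the responses was -1.66 (SE 0.143, adjusted p = 1.45e-05), the lowest of the 9 and the 16th lowest of all rows, and it was called in all 26 alternatives that gave it. With a pseudocount of 5 the difference was -0.79, and with 0.1 it was -2.26.

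The other disaccharidases rose with TNF in f/f by less. Sucrase-isomaltase, which splits sucrose and the branch points of starch, is encoded by Sis (chr3:72888557-72967863, minus strand). In dIEC, Sis measured 470.0, 409.7, 386 and 506 FPKM with TNF and 473, 468, 446 and 593 FPKM without, and these ranges overlapped (log2 change -0.16, SE 0.0936, adjusted p = 0.166). In f/f it measured 556, 490.0, 541 and 526 FPKM with TNF and 386, 349, 361 and 379.8 FPKM without, with no overlap and a log2 change of 0.52 (SE 0.0936, adjusted p = 0.000398). Maltase-glucoamylase, which releases glucose from starch fragments, is encoded by Mgam (chr6:40628831-40769123, plus strand). Mgam averaged 165 ± 7.78 FPKM in dIEC with TNF and 186 ± 18.5 in unstimulated dIEC, and 196 ± 10.4 FPKM in f/f with TNF and 159 ± 9.29 in unstimulated f/f (SD, n = 4). Its log2 change was -0.16 in dIEC (adjusted p = 0.0541) and 0.30 in f/f (adjusted p = 0.00222). Treh, which encodes trehalase (chr9:44673233-44686305, plus strand), measured 32.1, 31.1, 27.9 and 27.4 FPKM in dIEC with TNF and 40.8, 43.1, 35.8 and 35.9 FPKM in unstimulated dIEC, so the treated libraries lay below the others. In f/f it measured 34.8, 39.1, 44.0 and 41.8 FPKM with TNF and 27.5, 35.6, 34.9 and 36.1 FPKM without, and the ranges met. Treh fell by 0.38 in dIEC (SE 0.0953, adjusted p = 0.0038) and rose by 0.25 in f/f (adjusted p = 0.0449). The rise in f/f was called in 16 of 28 alternatives and had an adjusted p of 0.16 without f/f library 1, the lowest of its group. Treh overlaps Phldb1 on the other strand, and the labels do not say whether strand was used in counting. Phldb1 lay between 1.56 and 3.22 FPKM and was not called in any of the 5 comparisons (adjusted p from 0.187 to 1).

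The peptidases did not move as 1 group. Dpp4, which encodes dipeptidyl peptidase 4, an enzyme that removes dipeptides after proline or alanine (chr2:62330073-62412231, minus strand), fell with TNF in both genotypes. It measured 26.3, 28.0, 26.7 and 28.9 FPKM in dIEC with TNF and 41.3, 42.6, 42.2 and 45.7 FPKM in unstimulated dIEC. In f/f it measured 33.5, 30.4, 32.2 and 30.5 FPKM with TNF and 41.1, 37.0, 37.9 and 37.7 FPKM without. Neither pair of ranges overlapped, and the lowest libraries of all were those of dIEC with TNF. Dpp4 fell by 0.63 in dIEC (SE 0.048, adjusted p = 6.36e-08) and by 0.27 in f/f (SE 0.048, adjusted p = 0.000315). An antisense gene overlaps Dpp4 in the annotation, and it was not analysed here. Mep1a, which encodes the alpha subunit of the metalloprotease meprin (chr17:43474324-43502812, minus strand), rose with TNF in f/f. In dIEC it measured 11.6, 13.2, 12.1 and 13.7 FPKM with TNF and 12.6, 14.0, 12.6 and 13.6 FPKM without, overlapping ranges with a log2 change of -0.06 (adjusted p = 0.373). In f/f it measured 15.0, 16.8, 16.4 and 16.8 FPKM with TNF and 12.7, 12.9, 12.7 and 13.3 FPKM without, with no overlap and a log2 change of 0.31 (SE 0.0533, adjusted p = 0.000243). Anpep, which encodes aminopeptidase N (chr7:79821803-79861059, minus strand), averaged 51.2 ± 7.37 FPKM in dIEC with TNF and 59.5 ± 6.24 in unstimulated dIEC, and 39.5 ± 3.10 in f/f with TNF and 43.6 ± 6.88 in unstimulated f/f (SD, n = 4). Anpep was called in neither genotype (log2 change -0.22 in dIEC with adjusted p = 0.147, and -0.13 in f/f with adjusted p = 0.413).

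Over all 9, in dIEC organoids TNF raised 1 of the 9 hydrolases, Lct, and lowered 3, Dpp4, Treh and Enpp7, where 53.1% of all rows were called, 33.4% higher and 19.8% lower. The median log2 change of the 9 was -0.16, against 0.09 over all rows, and 2 of the 9 values lay above 0. The 4 called genes were also the 4 whose treated and unstimulated ranges did not overlap, which held for 42.5% of all rows. The replicate numbers were taken to pair the dIEC libraries by the check given under processing, in which library 3 was not matched best by its own number. With the number as a block 2 hydrolases rose and 6 fell, Alpi joining Lct and Anpep, Mgam and Sis joining the others. The share of all rows called was 70.8% with the block (45.8% higher and 25.0% lower). With median-of-ratios scaling 1 rose and 6 fell, while 2583 rows of the table were called higher and 3037 lower, against 3702 and 2195 without it. Quantile normalization gave 2 hydrolases up and 4 down, where 23.0% of all rows were called higher and 26.5% lower. Leaving out the 4 libraries that stood apart gave 1 up and 3 down, with 69.8% of all rows called.

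**Figure D2:**
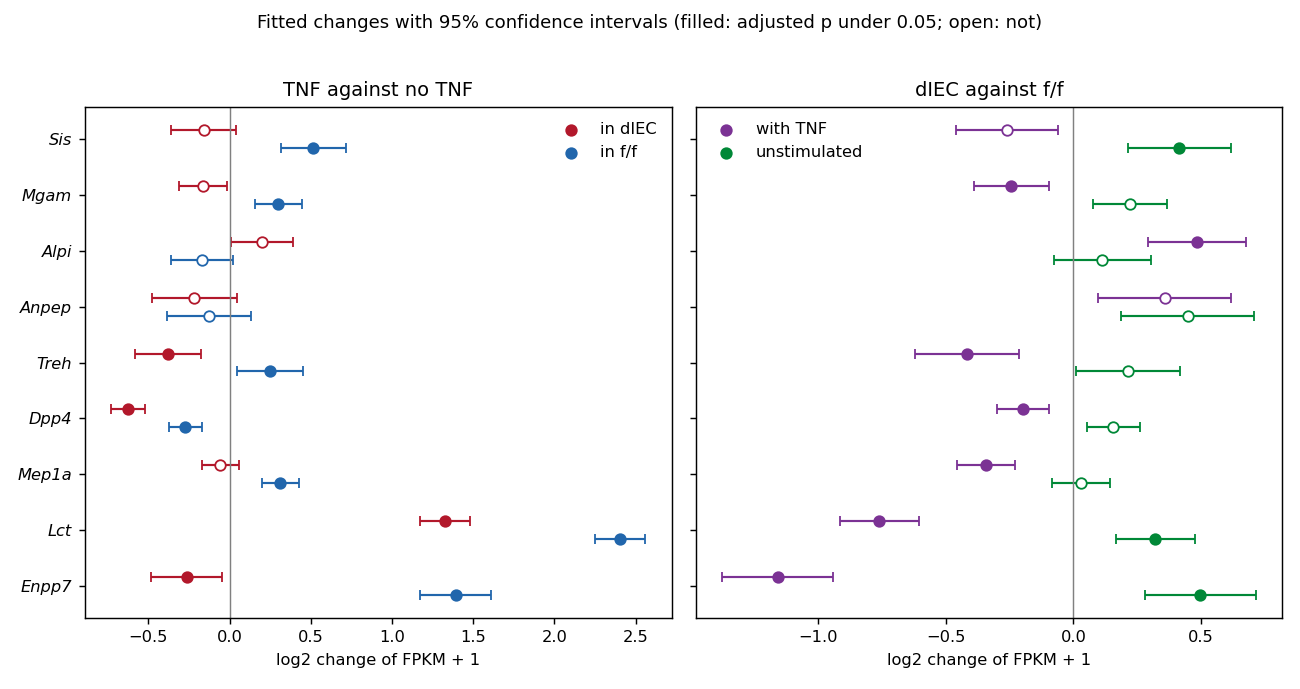
Fitted log2 changes of FPKM + 1 with 95% confidence intervals, for TNF against no TNF in each genotype (left) and for dIEC against f/f in each treatment (right); filled points have an adjusted p under 0.05. For 8 of the 9 genes, all but Alpi, the TNF response in dIEC lies left of that in f/f.

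The test of the difference between the 2 TNF responses found 7 of the 9 hydrolases lower in dIEC and 0 higher, against 3.29% of all rows called, 1.9% lower and 1.39% higher. Because the 9 were chosen with earlier results of these data known, these shares are a background and no test of the set. The median difference was -0.46 for the 9 and 0.03 for all rows. The response in dIEC minus the response in f/f was -1.66 for Enpp7 and -1.08 for Lct, as given above. It was -0.68 for Sis (SE 0.132, adjusted p = 0.00973), -0.63 for Treh (SE 0.135, adjusted p = 0.018) and -0.46 for Mgam (SE 0.0962, adjusted p = 0.014). The peptidase genes Mep1a and Dpp4 differed by -0.37 (SE 0.0753, adjusted p = 0.0126) and -0.35 (SE 0.0679, adjusted p = 0.00871). Mep1a, Lct, Enpp7 and Treh were called in every alternative that gave a value, while Dpp4 was lost with median-of-ratios scaling (adjusted p = 0.0612) and Mgam and Sis with quantile normalization (adjusted p = 0.0807 and 0.0678). The same 7 genes were called when the 4 libraries apart were left out, with 8.71% of all rows called, and 7 were called whichever single library was left out. With single libraries left out, 2.16% to 4.06% of all rows were called. The 2 genes not called were Anpep, at -0.09 (95% interval from -0.46 to 0.28, adjusted p = 0.955), and Alpi, at 0.37 (95% interval from 0.10 to 0.64, adjusted p = 0.155). In bulk RNA, fewer cells of a type and less RNA per cell cannot be told apart.

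**Figure D3:**
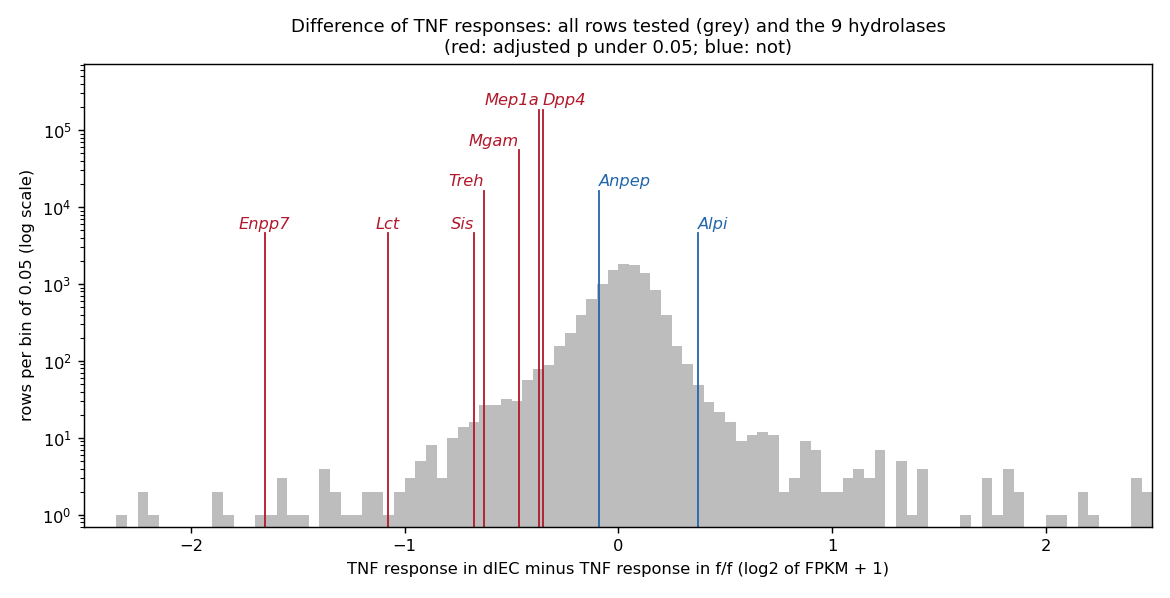
Distribution over the 11097 tested rows of the TNF response in dIEC minus that in f/f (log2 of FPKM + 1), with row counts on a log axis and the 9 hydrolases as labelled lines (red, adjusted p under 0.05; blue, not). The axis runs from -2.5 to 2.5 and leaves out 8 rows below and 12 rows above; 7 hydrolases lie at -0.35 or lower.

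With TNF, dIEC organoids had lower levels than f/f organoids of 6 hydrolases and a higher level of 1, against 6.5% of all rows called, 2.7% lower and 3.79% higher. Enpp7 fell by 1.16 (SE 0.101, adjusted p = 4.03e-06), Lct by 0.76 (SE 0.072, adjusted p = 8.59e-06), Treh by 0.42 (adjusted p = 0.0148), Mep1a by 0.34 (adjusted p = 0.000855), Mgam by 0.24 (adjusted p = 0.0471) and Dpp4 by 0.20 (adjusted p = 0.0218). Alpi rose, with the values given below. The other 2 were not called: Sis had a log2 change of -0.26 (adjusted p = 0.13), and Anpep one of 0.36 (SE 0.122, adjusted p = 0.105), higher in dIEC, that was called in 7 of 28 alternatives. In 7 of the 9 genes, the 6 that fell and Alpi, the 4 dIEC values lay wholly on 1 side of the 4 f/f values, which held for 13.9% of all rows. Leaving out f/f library 3 with TNF reduced the genes called to 4, with 4.84% of all rows called. Median-of-ratios scaling gave 2 up, Alpi and Anpep, and 4 down, with 6.54% of all rows called, 3.59% higher and 2.96% lower. Leaving out the 4 libraries that stood apart gave 2 up, again Alpi and Anpep, and 7 down, with 13.6% of all rows called, 7.06% higher and 6.51% lower. Mgam was called in 12 of 28 alternatives and Dpp4 in 21 of 28. With a pseudocount of 5 the change of Enpp7 was -0.59, and it was called. Markers of other cell types moved in the same comparison. Of 5 Paneth cell markers 2 fell, Lyz1 (-0.44, adjusted p = 0.00237) and Defa24 (-0.47, adjusted p = 0.00218), and the 5 summed to 11021 to 12099 FPKM in dIEC with TNF, against 14624 to 17010 FPKM in f/f with TNF. Of 5 enteroendocrine markers 3 rose: Cck (0.92, adjusted p = 0.00108), Gcg (0.40, adjusted p = 0.000842) and Chgb (0.36, adjusted p = 0.00476). Their 5 levels summed to 273 to 341 FPKM in dIEC with TNF and 196 to 233 FPKM in f/f with TNF. None of these markers was at 0, and their part in the hydrolase values was not tested.

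Without TNF, mean hydrolase levels in dIEC lay above those in f/f, with overlapping ranges for Alpi, Treh and Mep1a. All 9 log2 changes of dIEC against f/f lay above 0, with a median of 0.22 against -0.02 over all rows. Those of 3 genes were called, against 2.32% of all rows (1.54% higher and 0.784% lower): Enpp7 rose by 0.50 (SE 0.101, adjusted p = 0.0183), Sis by 0.42 (SE 0.0936, adjusted p = 0.0303) and Lct by 0.32 (SE 0.072, adjusted p = 0.03). An unadjusted p under 0.05 was found for 7 of the 9. The share of all rows with such a p was not counted, so unadjusted counts have no background to be read against. The change of Lct was 0.12 with a pseudocount of 5, where the call was lost (adjusted p = 0.132), and 0.53 with 0.1, and that of Enpp7 was 0.20 and 0.75, called with both. Anpep had a log2 change of 0.45 that was not called (adjusted p = 0.0805). The 4 dIEC values lay above the 4 f/f values in 6 of the 9 genes, Sis, Mgam, Anpep, Dpp4, Lct and Enpp7, and 7.02% of all rows had ranges that did not overlap in either direction. None of the 3 was called when only the 8 unstimulated libraries were fitted (adjusted p of 0.0845 for Sis, 0.088 for Enpp7 and 0.108 for Lct, with 6 of the 9 at an unadjusted p under 0.05), and the number called was 0 without dIEC library 2 or f/f library 1, 2 or 4 and 1 without dIEC library 1. The fit of 8 libraries called 1.23% of all rows. Without those single libraries the shares were 1.38%, 1.56%, 1.25%, 1.28% and 1.27%, in that order, so calls were fewer over the whole table too. Leaving out the 4 libraries apart gave 5 that rose, with Anpep and Dpp4 added, and 6.39% of all rows called. In the gene lists described below, log2 changes above 0 were found for 10 of 12 other apical hydrolases, 10 of 13 transporters and 12 of 14 microvillus scaffold genes. They were also found for 11 of 15 enterocyte transcription factor genes and 2 of 4 neonatal enterocyte genes. The same held for 2 of 4 adult enterocyte genes and 3 of 5 villus tip genes. Most of these list changes were not called. The share of all rows above 0 was not counted, and the median over all rows was -0.02. Paneth cell markers moved here too: 3 of 5 fell in unstimulated dIEC, where the 5 summed to 11464 to 13528 FPKM, against 14562 to 16515 FPKM in f/f, and none was at 0. The part of this in the hydrolase values was not tested.

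Alpi, the gene of intestinal alkaline phosphatase (chr1:87098002-87101606, minus strand), was the 1 hydrolase called higher in dIEC under TNF. It measured 215, 184, 174 and 177 FPKM in dIEC with TNF and 126, 127, 136 and 144 FPKM in f/f with TNF. Every dIEC library exceeded every f/f library, with a log2 change of 0.49 (SE 0.0894, adjusted p = 0.00336) that was called in all 28 alternatives. Without TNF it measured 168, 185, 147 and 152 FPKM in dIEC and 130.1, 163, 151 and 158 FPKM in f/f, overlapping ranges with a log2 change of 0.11 (adjusted p = 0.833). Its TNF response was 0.20 in dIEC (adjusted p = 0.0712) and -0.17 in f/f (adjusted p = 0.135), neither called, and their difference was called with the replicate number as a block (adjusted p = 0.0301) and with sample weights (adjusted p = 0.0135). Those alternatives called 11.1% and 17.3% of all rows, against 3.29% without them. The block also pairs f/f libraries by number, which the check given under processing did not bear out. Akp3, a related alkaline phosphatase gene that starts 23367 bases from Alpi and was named after its values were seen, averaged 89.7 ± 12.1 FPKM in dIEC with TNF and 44.2 ± 4.34 in f/f with TNF, and 26.5 ± 4.16 in unstimulated dIEC and 28.4 ± 3.10 in unstimulated f/f (SD, n = 4). Akp3 rose with TNF by 1.73 in dIEC and by 0.62 in f/f, and the difference was 1.10 (SE 0.164, adjusted p = 0.00143). The genes are paralogs, and the labels do not say how reads shared between them were divided, so both levels are uncertain to that extent.

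The genes around the hydrolases in the same digestive pathway were counted in lists named for their roles. These lists were also chosen with earlier results of these data known. Of 12 tested genes for other apical hydrolases, 6 had a lower TNF response in dIEC than in f/f and 2 a higher one, with a median difference of -0.59. Over all rows 1.9% were called lower and 1.39% higher in this test. The lower ones included Asah2, the neutral ceramidase that acts on the ceramide released by alkaline sphingomyelinase (-0.70, adjusted p = 0.000288). The 2 higher ones were Akp3 and Enpp3, a nucleotide pyrophosphatase (0.62, adjusted p = 0.00118), named here because they were the only 2. With TNF, 2 genes of this list rose and 8 fell in dIEC, and 3 rose and 6 fell in f/f, Akp3 rising in both. Of all rows, 33.4% rose and 19.8% fell in dIEC, and 26.9% rose and 20.3% fell in f/f. Unlike Lct, which is not in this list, Mep1b and Mme fell with TNF in both genotypes. Mep1b, the beta subunit of meprin, fell by 1.53 in dIEC (adjusted p = 6.04e-11) and by 0.90 in f/f (adjusted p = 3.22e-08), and Mme, neprilysin, fell by 1.41 (adjusted p = 2.2e-09) and 0.69 (adjusted p = 6.96e-06).

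Of 13 transporters that take up the products of the hydrolases, 6 had a lower TNF response in dIEC and 0 a higher one (median difference -0.35). Slc5a1, the sodium-glucose transporter SGLT1, rose with TNF by 0.75 in dIEC and by 1.32 in f/f (difference -0.57, adjusted p = 0.00367). Slc15a1, the peptide transporter PEPT1, fell by 0.45 in dIEC and rose by 0.21 in f/f (difference -0.66, adjusted p = 0.00335). Of 14 microvillus scaffold genes 1 had a lower response, Tmigd1 (-0.86, adjusted p = 0.00312). In limma's test of the difference 0 of 15 enterocyte transcription factor genes were called, and 1 of them had an unadjusted p under 0.05: Isx, a homeobox repressor (-0.58, adjusted p = 0.0775). For the 4 neonatal enterocyte genes both counts were 0. Isx fell with TNF in both genotypes, by 2.44 in dIEC and by 1.86 in f/f. Among 5 villus tip genes 1 was higher, Ada, adenosine deaminase (0.90, adjusted p = 0.00691).

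**Figure D4:**
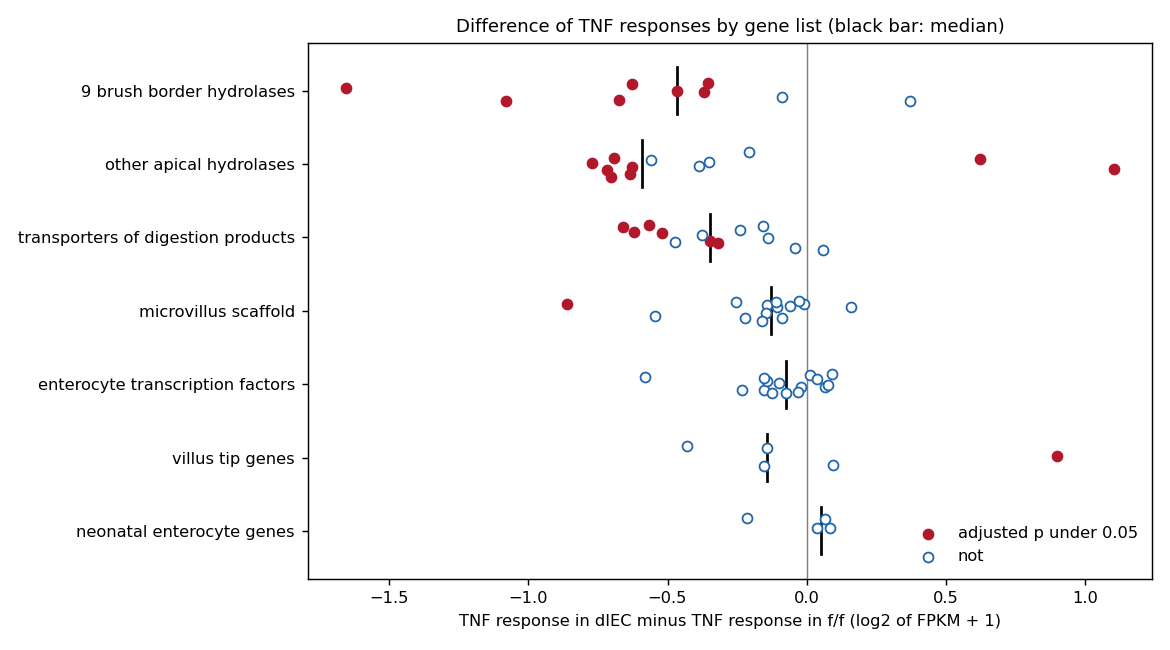
TNF response in dIEC minus that in f/f (log2 of FPKM + 1) for each tested gene of 7 lists; filled red points have an adjusted p under 0.05, open blue points do not, the black bar is the list median, and vertical scatter within a list has no meaning. Medians are -0.46 for the 9 hydrolases, -0.59 for other apical hydrolases, -0.35 for transporters and -0.13 for microvillus scaffold genes.

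Enterocyte markers outside the hydrolases had a median difference of TNF responses of -0.43, close to the -0.46 of the hydrolases. Of 8, the values of 7 lay below 0, all but Ada, and 6 had an unadjusted p under 0.05. Those called were Slc5a1 and Krt20, with a lower response in dIEC, and Ada, with a higher one. Apoa1, an apolipoprotein, had a difference of -0.63 (adjusted p = 0.177), and Fabp2, a fatty acid binding protein, one of -0.43 (adjusted p = 0.0977). Their summed level was 8700 to 9938 FPKM in dIEC with TNF and 9737 to 10386 FPKM in f/f with TNF, and 7539 to 9527 FPKM in unstimulated dIEC and 7230 to 7556 FPKM in unstimulated f/f. None of the 8 was at 0. Stem cell markers rose with TNF in both genotypes, 3 of 4 in each, with sums of 1227 to 1314 FPKM in dIEC and 1452 to 1620 FPKM in f/f with TNF, and 861 to 1038 FPKM in dIEC and 995 to 1210 FPKM in f/f without, and 0 of the 4 were called in limma's test of the difference or had an unadjusted p under 0.05 there. TNF raised 33.4% of all rows in dIEC and 26.9% in f/f. The part of these markers in the hydrolase values was not tested.

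The 9 hydrolases did not vary as 1 unit. Across the 16 libraries, which share their group means, Sis and Mgam correlated with r = 0.873 on the log2 scale, and with r = 0.695 once group means were removed. Enpp7 and Mep1a had r = 0.857 across groups and 0.115 within them. Alpi and Treh showed the reverse, r = -0.23 across groups and 0.868 within them. In the 4 libraries that stood apart, deviations fell with transcript GC over all rows, as given above, and the hydrolases are part of that trend. Sis (40.5% GC) and Dpp4 (42.2%) lay above their group means in all 4, while Anpep (53.3%), Treh (53.7%), Alpi (55.0%) and Enpp7 (55.2%) lay below theirs in all 4. Mgam (46.9%), Mep1a (48.7%) and Lct (52.9%) did not keep to 1 side. These correlations are descriptions over libraries that also share GC effects. The rows most like the mean profile of the 9 over the 16 libraries were Parp16 (r = 0.946), Asah2 (0.899), Cyp4v3 (0.864), Fam114a2 (0.861) and Ppm1h (0.857). With group means removed they were Tfg, Ganab, Ano6, Tox and Vdr (r from 0.911 to 0.932).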

How the data were processed

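Total RNA of the organoids was extracted with TRIzol and made into Illumina libraries, per the labels' protocols. The authors deposited 1 table of FPKM values per gene and library. Per the submitters' processing notes the tools included TopHat2 2.1.1, Cufflinks 2.2.1 and Cuffdiff and the build was mm10, with settings, strand use and the division of shared reads not stated. The table's summed expression score, a deposited column of the authors, only served to check the rows. No column of library values was left out. Whole reads could not be recovered, so no count test or counting interval is given.

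Rows averaging 1 FPKM or more were fitted as log2(FPKM + 1) with limma 3.58.1 in R 4.3.3, with 1 mean per group over 16 libraries and moderated, trended variances (12 residual and 2.52 prior degrees of freedom). The 5 two-sided comparisons were adjusted by the Benjamini-Hochberg method over all 11097 rows, and rows with an adjusted p under 0.05 were called. Rows with an unadjusted p under 0.05 were counted for the hydrolases and gene lists only. The fit was tested on simulated data. The hydrolases and all gene lists were chosen with earlier results of these data known. Named list genes were the 2 called genes of smallest adjusted p per list and comparison, except where stated; 1 gene counted in a list is not reported here. Gene positions and transcript GC come from GENCODE vM21.

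Alternatives were pseudocounts of 5 and 0.1, no minimum and a minimum of 5 FPKM, median-of-ratios and quantile scaling, a GC trend removed per library, sample weights, no variance trend, fits of 8 libraries, a replicate block, and leaving out the 4 libraries apart or each library. Same-numbered libraries of dIEC with and without TNF deviated together (r = 0.253, 0.293, 0.118 and 0.419), so these numbers were taken to pair them. Library 3 of dIEC with TNF was most like unstimulated dIEC library 1, so the pairing of number 3 is uncertain. Same-numbered libraries of f/f with and without TNF (r = 0.321, 0.124, 0.118 and -0.030) and of the other group pairs did not deviate together in every case.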

Additional observations from a re-analysis of the deposited data

Results flagged for a closer look

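Of 36 sets of 4 libraries (9 genes in 4 groups), 2 had 1 library far from the others, and chance alone sets apart about 1 set in 20. Both were unstimulated f/f library 1. Anpep measured 33.4 FPKM there and 45.9 to 48.0 FPKM in the other unstimulated f/f libraries, a gap of 0.856 of the group's range. Treh measured 27.5 FPKM there and 34.9 to 36.1 FPKM in the others, also a gap of 0.856 of the range. This is 1 of the 4 libraries that stood apart with GC.

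The TNF response differed between genotypes, by a test of the difference itself, for 7 hydrolases: Dpp4 (-0.35), Enpp7 (-1.66), Lct (-1.08), Mep1a (-0.37), Mgam (-0.46), Sis (-0.68) and Treh (-0.63). Each value is the log2 response in dIEC minus that in f/f. The same test called 3.29% of all rows, 1.9% lower and 1.39% higher.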

How the results depend on the processing

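The number of hydrolases called without TNF (3 in dIEC against f/f) was 1 with a minimum mean of 5 FPKM, which drops Lct and Enpp7, 7 with the GC trend removed, 5 with sample weights, 0 in the fit of 8 libraries and 5 without the 4 libraries apart, and it ranged from 0 to 4 when single libraries were left out. In those 5 alternatives 2.04%, 6.37%, 16.0%, 1.23% and 6.39% of all rows were called, in that order, against 2.32% otherwise. With TNF the count of 7 was 4 with the minimum of 5 FPKM (5.51% of all rows called), and it ranged from 4 to 8. For TNF in dIEC the count of 4 was 2 with the minimum of 5 FPKM, 7 with median-of-ratios scaling, 7 with the GC trend removed and 8 with the replicate block, and it ranged from 3 to 5. The shares of all rows called in these alternatives were 53.6%, 50.6%, 62.1% and 70.8%, in that order, against 53.1% otherwise. For TNF in f/f (7 called) and for the difference of responses (7 called) every alternative stayed within 1.5 times the count, with leave-one-out ranges of 6 to 7 and 7 to 7. The replicate block gave 4 called without TNF, 9 with TNF, 8 for TNF in f/f and 8 for the difference. With this block 2.76%, 7.91%, 66.1% and 11.1% of all rows were called, against 2.32%, 6.5%, 47.2% and 3.29% without it. The numbers were taken to pair only the dIEC libraries. Of the values of single hydrolases, 1115 kept direction and side of the threshold, 69 lost the call, 52 gained it and 5 changed sign, none of them called: Mep1a without TNF (-0.0081 with sample weights) and the difference for Anpep (0.0976 with sample weights, 0.0476 without the 4 libraries apart, and -0.1562 to 0.0314 when single libraries were left out, above 0 when library 1 of unstimulated f/f or library 4 of dIEC with TNF was dropped). The cause was not tested. Over all rows the counts called without TNF (258), with TNF (721), for TNF in f/f (5235), for TNF in dIEC (5897) and for the difference (365) ranged over the alternatives from 136 to 1781, 449 to 2556, 3892 to 7628, 4365 to 8142 and 195 to 1920. When single libraries were left out, the ranges were 139 to 304, 537 to 867, 4499 to 5781, 5133 to 6262 and 240 to 450, in that order. Depth is unknown, so the precision of low levels such as Lct and Enpp7 without TNF cannot be given.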

Other observations

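Lct has close neighbours on chromosome 1. Ubxn4 lies 5378 bases from it and was called in none of the 5 comparisons (TNF response 0.10 in dIEC and 0.03 in f/f). Mcm6, a DNA replication gene 3272 bases away whose introns hold the known human control region of lactase, rose with TNF by 0.30 in dIEC (adjusted p = 8.25e-06, limma) and by 0.13 in f/f (adjusted p = 0.00951), and the difference of 0.17 was not called (adjusted p = 0.101).

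The rows most like Lct over the 16 libraries, looked up after its values were seen, were Abca1, the cholesterol exporter (r = 0.990), Smtnl2 (0.987), Ceacam20 (0.982), Oat (0.981) and Bcl6, a transcriptional repressor (0.980). For Enpp7 they were Ndrg1 (0.962), Slc7a15 (0.920), Slc13a2 (0.910), Tbc1d24 (0.907) and Chrm3 (0.896). These r values describe libraries that share group means.

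Enteroendocrine markers rose with TNF in 5 of 5 genes in dIEC and 3 of 5 in f/f, with sums of 273 to 341 FPKM in dIEC with TNF and 196 to 233 FPKM in f/f with TNF, and 0 of 5 were called in limma's test of the difference, where 2 had an unadjusted p under 0.05 and the median was 0.25. TNF raised 33.4% of all rows in dIEC and 26.9% in f/f. In dIEC against f/f with TNF 3 of the 5 markers were higher, against 3.79% of all rows, with a median log2 change of 0.36.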
